A study of Homo sapiens and Mus musculus with 16 samples.

Results

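The genes described here encode the SR proteins (symbols SRSF), the heterogeneous nuclear ribonucleoproteins or hnRNPs (HNRNP) and the subunits of the SF3A and SF3B complexes (SF3A and SF3B), in a human and a mouse tumour line. Rows were taken by symbol alone: SRSF followed by a number, HNRNP followed by letters and an optional number, and SF3A or SF3B followed by a digit. No measured value entered this symbol rule, but the families were chosen with earlier results of these data known. The human table held 75 such rows among 58713, of which 12 were SRSF, 54 HNRNP and 9 SF3 rows. The mouse table held 40 among 53796, of which 11 were Srsf, 20 Hnrnp and 9 Sf3 rows. GENCODE 29 annotates 46 of the human rows as protein-coding genes and 29 as pseudogenes, most of them copies of HNRNPC, HNRNPK or HNRNPDL by name.

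These proteins act on nascent transcripts. SR proteins bind exon sequences and help the spliceosome to recognise the neighbouring splice sites, and hnRNPs coat the transcript and often oppose or redirect that choice. SF3A and SF3B are the protein complexes of the U2 snRNP that hold it on the branch point upstream of an exon. Many SR protein and hnRNP genes are known to adjust their own mRNA through alternative exons that lead to its decay, which feeds back on their mRNA level.

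Of 16 libraries, 4 PD-L1 KO and 4 wild type (WT) ones were of MDA-MB-231 cells, which are of human triple-negative breast cancer origin. The other 8, again 4 KO and 4 WT, were of CT26 cells, derived from a colon carcinoma of the mouse. KO cells had been made by CRISPR delivered with a lentivirus, and no other treatment is named. PD-L1, encoded by CD274, is the surface ligand of PD-1 on T cells, and the comparison is of transcripts of tumour cells labelled KO or WT for it. The labels state neither if KO cells were pooled or clonal nor if the 4 libraries of each group stem from different cultures. The p-values therefore measure the spread of these libraries only, and part of it may be technical.

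Levels are in FPKM (fragments mapped to a gene, scaled by gene length and by all fragments mapped), so genes of a line can be compared per length, but the 2 tables were normalized separately and levels were not compared between lines. KO was compared with WT within a line by limma on log2(FPKM + 1), which understates changes of low genes. Adjusted p is Benjamini-Hochberg over all 14450 human or 11342 mouse genes with at least 1 FPKM in at least 4 of 8 libraries. A gene is said to have risen or fallen in KO when its adjusted p was below 0.05. All printed adjusted p are limma's. Values after ± are SDs over 4 libraries.

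CD274 mRNA measured 9.93, 11.6, 8.19 and 12.5 FPKM in the MDA-MB-231 KO libraries, against 12.3, 11.2, 12.5 and 12.8 FPKM in WT. The groups overlapped, and the log2 fold change of -0.20 did not pass the test (adjusted p 0.166 in limma, exact permutation p 0.229, two-sided), though after upper-quartile scaling it was -0.40 and passed (adjusted p 0.0157). Cd274 in CT26 averaged 0.526 ± 0.055 FPKM in KO and 1.41 ± 0.127 FPKM in WT libraries, without overlap (log2 fold change -0.66, adjusted p 1.42e-04 in limma, exact permutation p 0.0286, the smallest that 70 assignments can give). An edit in a coding exon need not lower the mRNA, so neither value checks the loss of the protein.

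Line markers moved with the genotype. In MDA-MB-231 2 of 8 tested line markers rose and 6 fell. VIM, a mesenchymal filament gene, measured 2545 FPKM in KO and 1113 FPKM in WT libraries, KRT7, an epithelial keratin gene, 37.8 FPKM in KO and 1370.3 FPKM in WT libraries, and CD44, a hyaluronan receptor gene, 321 FPKM in KO and 1093 FPKM in WT libraries. ESR1 and PGR, the hormone receptor genes absent from triple-negative cells, were below 0.1 FPKM on average in both groups. EPCAM, CDH1 and ERBB2, also listed as low or absent in this line, were among the 8 tested. They thus had at least 1 FPKM in at least 4 libraries. Levels of EPCAM, CDH1, ERBB2, KRT18 and EGFR are not given here, so VIM, KRT7 and CD44 do not stand for the whole list. In CT26, Epcam was at 0 in every library, and the epithelial markers Cdh1 and Krt8 averaged at most 0.145 FPKM in KO and 0.139 FPKM in WT libraries, while Vim measured 4531 FPKM in KO and 3802 FPKM in WT libraries. Of the 8 line markers listed for CT26, 3 were tested there, of which 2 rose and 1 did not pass the test. Besides Vim, those tested were among Krt18, Krt20, Vil1 and Cdx2, whose levels are not given here. The low Epcam, Cdh1 and Krt8 thus do not stand for every epithelial marker of the list. Of the leukocyte markers, CD3E was at 0 in every library of both lines, and the summed level of the list was 78.1 to 93.8 FPKM in KO and 100.6 to 109 FPKM in WT libraries of MDA-MB-231, nearly all of it CD68, and 2.70 to 4.29 FPKM in KO and 4.65 to 5.96 FPKM in WT libraries of CT26. The 6 fibroblast and endothelial markers summed to 5.04 to 6.82 FPKM in KO and at least 12.1 FPKM in WT libraries of MDA-MB-231, and to 17.1 to 20.5 FPKM in KO and 27.4 to 29.5 FPKM in WT libraries of CT26, where Lum and Cdh5 were at 0. The part of these differences in the splicing factor results was not tested, and in bulk RNA fewer cells of a kind and less RNA per cell cannot be told apart. Depth relative to WT replicate 1 of the line was 0.509 to 0.779 in KO and 0.941 to 1.21 in WT libraries of MDA-MB-231, and 0.926 to 2.49 in KO and 0.799 to 1.14 in WT libraries of CT26.

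In MDA-MB-231 the splicing factor genes were higher in KO cells almost throughout. Of 75 rows, 49 passed the filter on low values and 26 did not, none of them above 1.80 FPKM in any library. Those 26 were 21 pseudogenes and the protein-coding genes SRSF12, HNRNPCL1, HNRNPCL2, HNRNPCL3 and HNRNPCL4. Of the 49, 43 rose, 0 fell and 6 did not pass the test, and 25 rose by at least 1.5-fold. Over all genes tested, 42.6% rose and 25.7% fell (68.2% either way), and 26.6% rose by at least 1.5-fold. Levels of KO and WT libraries did not overlap for 41 of the 49, all higher in KO, where 39.1% of all genes were higher without overlap and 23.6% lower. The median log2 fold change was 0.59 over the 49 and 0.18 over all genes, and 45 of the 49 lay above the median of all genes.

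By family, 9 of 11 tested SRSF genes, 25 of 29 tested HNRNP rows and 9 of 9 SF3 genes rose. Scaling each library to its upper quartile shifted the median of all genes by -0.19, to -0.01, and gave 37 splicing factor rows higher and 3 lower, while among all called genes the share that rose went to 49.4%, against 62.4% on the deposited scale. Of all genes tested, 32.8% rose and 33.6% fell after upper-quartile scaling. Quantile normalization gave 39 higher and 4 lower, where 37.3% of all genes rose and 30% fell. The median of the splicing factor rows exceeded that of all genes by 0.41 on the deposited scale, 0.38 after upper-quartile scaling and 0.34 after quantile normalization.

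**Figure D1:**
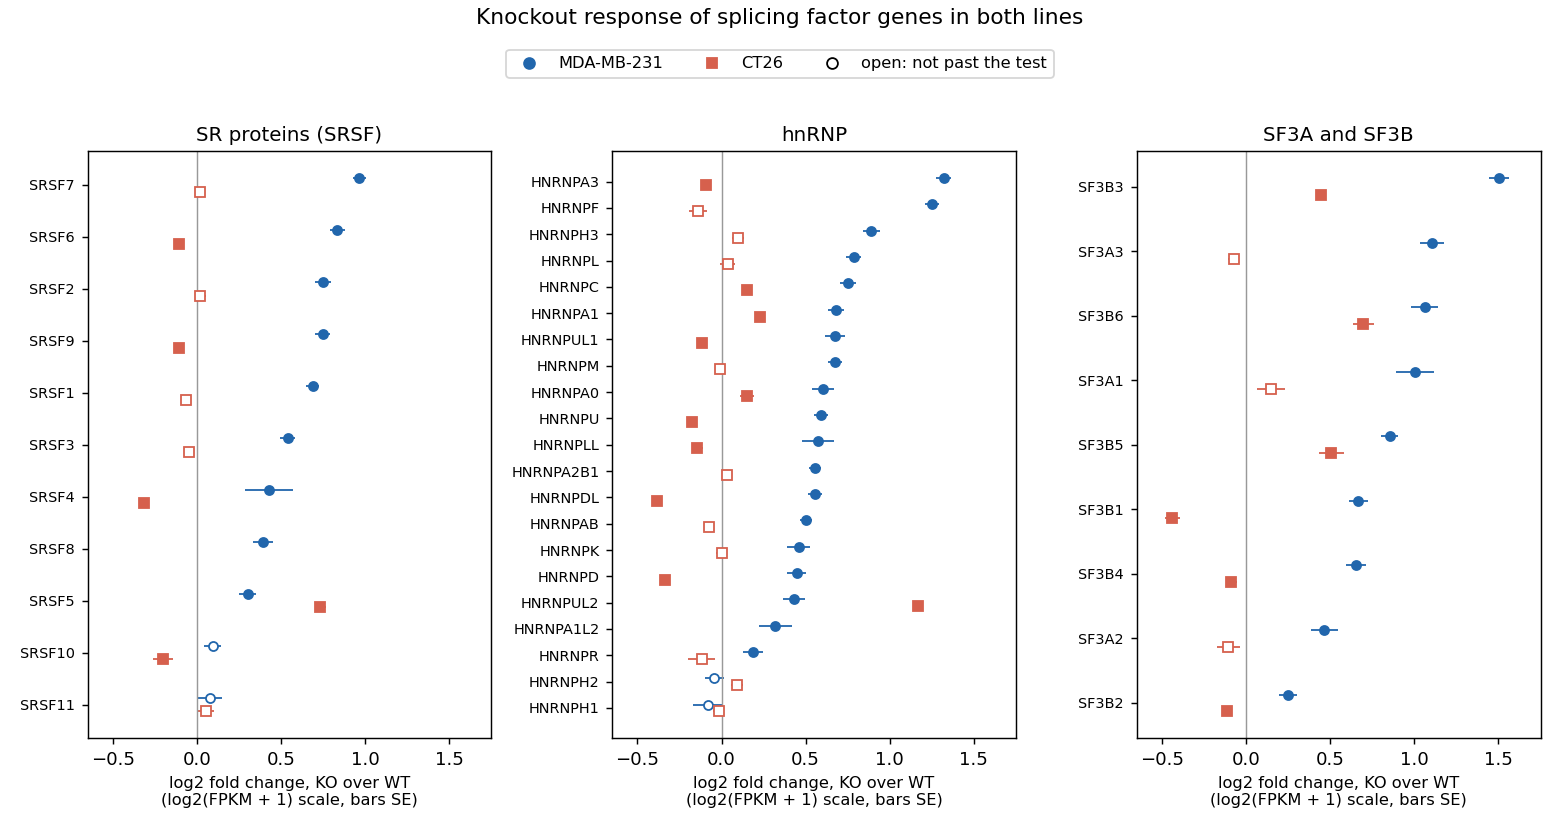
Log2 fold change of KO over WT (horizontal axis, log2(FPKM + 1) scale, bars 1 SE) for each protein-coding SRSF, HNRNP and SF3 gene tested, with MDA-MB-231 as blue circles and CT26 as red squares; open symbols did not pass the test. The circles lie right of 0 except for HNRNPH1 and HNRNPH2, whereas the squares lie on both sides of 0 and mostly near it; after upper-quartile or quantile scaling HNRNPR, SRSF10 and SRSF11 in MDA-MB-231 lie left of 0 too, and SF3B2 does after quantile normalization.

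The 9 SF3 genes of MDA-MB-231 all rose. Their summed level was 2147 ± 83.6 FPKM in KO and 1143 ± 35.6 FPKM in WT libraries, a ratio of 1.88, against ratios of 1.48 for the SRSF genes and 1.46 for the protein-coding HNRNP genes. SF3B3 (chromosome 16, 70523788 to 70577670 in hg38, GENCODE 29) encodes a scaffold subunit of SF3B and measured 489, 549.8, 579 and 529 FPKM in the KO libraries, against 181, 179, 197 and 196 FPKM in the WT libraries. Each KO library was more than 2-fold above every WT library, and the KO mean was 2.85 times the WT mean (log2 fold change 1.504, SE 0.060, adjusted p 8.78e-08, limma). It was the most abundant SF3 gene in KO cells, where no other SF3 gene overlapped it, whereas in WT cells SF3B3, SF3B2 and SF3B1 overlapped in turn.

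The 3 genes of SF3A, the complex that joins SF3B to the rest of the U2 snRNP, also rose. SF3A3 measured 260.2, 298, 246 and 248 FPKM in the KO libraries, against 118, 129, 113 and 126 FPKM in the WT libraries, and the groups were far apart (log2 fold change 1.11, SE 0.071, adjusted p 1.45e-06). SF3A1 measured 159, 194, 162 and 168 FPKM in the KO libraries, against 87.2, 67.2, 89.7 and 96.9 FPKM in the WT libraries, again without overlap (log2 fold change 1.004, SE 0.11, adjusted p 5.59e-05). The SF3A1 row shares its locus with MTFP1, which rose (log2 fold change 0.64), and with RNF215 and SEC14L2, which fell (-0.46 and -0.55), among others. Use of strand in counting is not stated, so reads of genes that share a locus may not be separable, here and in other rows. SF3A2 measured 144, 145, 113 and 140.2 FPKM in the KO libraries, against 101, 94.1, 94.8 and 101 FPKM in the WT libraries. KO replicate 3 of SF3A2 lay well below the other KO libraries and still above every WT library (log2 fold change 0.46, SE 0.081, adjusted p 8.43e-04).

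The other SF3B subunits rose by different amounts. SF3B6, which contacts the branch point region, measured 242, 247, 220.2 and 230.2 FPKM in the KO libraries, against 99.3, 124, 105 and 122 FPKM in the WT libraries (ratio 2.09, log2 fold change 1.06). SF3B5, the smallest subunit, averaged 195 ± 7.98 FPKM in KO and 108 ± 6.05 FPKM in WT libraries (ratio 1.81), and SF3B4, an RNA-binding subunit, 118 ± 8.85 FPKM in KO and 74.7 ± 2.87 FPKM in WT libraries (ratio 1.58). SF3B1, the large subunit that cradles the branch point helix and is recurrently mutated in cancer, measured 256, 277, 287 and 294 FPKM in the KO libraries, against 174, 165, 174 and 188 FPKM in the WT libraries. Its KO libraries all lay above its WT libraries (log2 fold change 0.67, SE 0.057, adjusted p 9.08e-06). SF3B2 rose least, with 214 ± 8.10 FPKM in KO and 180.1 ± 12.2 FPKM in WT libraries (log2 fold change 0.25, adjusted p 0.00331), and its log2 fold change was 0.033 after upper-quartile scaling and -0.0012 after quantile normalization, neither past the test. The ratio of SF3B3 to SF3B1, a pair chosen after the values were seen, was 1.93 ± 0.098 in KO and 1.08 ± 0.044 in WT libraries.

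**Figure D2:**
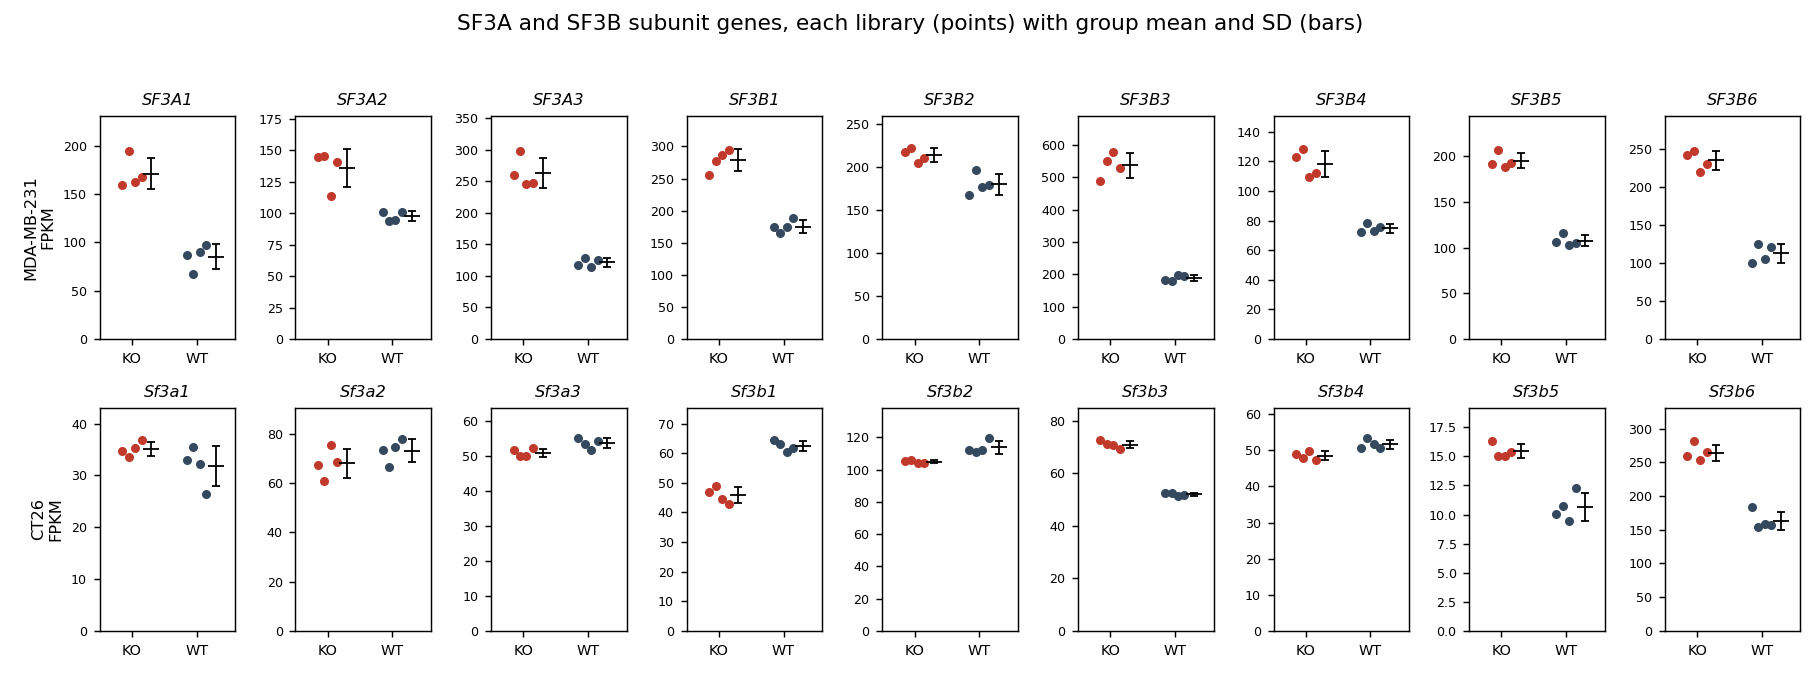
FPKM (vertical axis, from 0) of the 9 SF3A and SF3B subunit genes in each KO and WT library (points, KO in red and WT in dark blue), with the group mean and SD beside them; MDA-MB-231 is the upper row and CT26 the lower. In MDA-MB-231 the KO points lie above the WT points for every gene, whereas in CT26 this holds for Sf3b3, Sf3b5 and Sf3b6 and the KO points lie below for Sf3b1, Sf3b2 and Sf3b4; Sf3b4 in CT26 is at a log2 fold change of 0.0039 after upper-quartile scaling and SF3B2 in MDA-MB-231 at -0.0012 after quantile normalization.

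Among the hnRNP genes of MDA-MB-231, HNRNPA3 and HNRNPF rose most. HNRNPA3 (chromosome 2, 177212563 to 177223958), a relative of the splicing repressor HNRNPA1, measured 206, 225, 202 and 209 FPKM in the KO libraries, against 82.2, 86.3, 83.4 and 82.2 FPKM in the WT libraries. Each KO library was more than 2-fold above the highest WT library (log2 fold change 1.32, SE 0.045, adjusted p 3.66e-08). HNRNPF (chromosome 10, 43385617 to 43409166), which binds runs of guanines, measured 287, 299.7, 295 and 290.5 FPKM in the KO libraries, against 122, 116, 129 and 124 FPKM in the WT libraries. Both groups of HNRNPF were tight and well apart (log2 fold change 1.25, SE 0.042, adjusted p 3.36e-08). HNRNPH3, a member of the same guanine-run family, averaged 251 ± 16.2 FPKM in KO and 135 ± 2.95 FPKM in WT libraries (log2 fold change 0.89).

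HNRNPH1 and HNRNPH2 (HNRNPF and HNRNPH3 are of the same family) did not pass the test. HNRNPH1 (chromosome 5, 179614178 to 179634784) measured 808, 872, 700.0 and 954 FPKM in the KO libraries, against 902, 836, 865 and 909 FPKM in the WT libraries. The KO libraries lay on both sides of the WT libraries (log2 fold change -0.083, SE 0.087, adjusted p 0.42). HNRNPA1 had the highest mean of the hnRNP genes in KO libraries, and HNRNPH1 in WT libraries. HNRNPH2 measured 32.2, 30.6, 33.8 and 30.4 FPKM in the KO libraries, against 33.7, 31.1, 33.9 and 32.2 FPKM in the WT libraries, with overlapping groups (log2 fold change -0.043, adjusted p 0.511). After upper-quartile scaling both fell, with log2 fold changes of -0.30 and -0.25 (adjusted p 0.0153 and 0.00635, limma). The ratio of HNRNPF to HNRNPH1, chosen after the values were seen, was 0.356 ± 0.048 in KO and 0.140 ± 0.0064 in WT libraries. The HNRNPH2 row shares its locus with a readthrough transcript that joins it to RPL36A, and reads of the 2 may not be separable.

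The other hnRNP genes rose more evenly. In KO libraries the most abundant of them was HNRNPA1, which often represses exons, with 977 ± 50.7 FPKM in KO and 609 ± 18.02 FPKM in WT libraries (log2 fold change 0.68). HNRNPA2B1, which overlapped HNRNPA1 in both groups, averaged 897 ± 31.2 FPKM in KO and 609.5 ± 17.6 FPKM in WT libraries (log2 fold change 0.56). The HNRNPA1 row shares its locus with CBX5, which rose (log2 fold change 1.01), and with COPZ1, which did not pass the test, among others. The HNRNPA2B1 row shares its locus with CBX3, which rose (0.59), and NFE2L3, which fell (-0.64). HNRNPC, which binds uridine tracts, averaged 642 ± 38.97 FPKM in KO and 381 ± 10.8 FPKM in WT libraries, and HNRNPK, which binds cytosine-rich RNA, 603 ± 42.2 FPKM in KO and 439 ± 30.5 FPKM in WT libraries. HNRNPL, which binds CA repeats, had a log2 fold change of 0.78, HNRNPM 0.67, HNRNPU, a nuclear scaffold protein, 0.59, and HNRNPD, which binds AU-rich elements in mRNAs, 0.45, all past the test. HNRNPAB, HNRNPA0, HNRNPDL, HNRNPLL and HNRNPUL1 rose as well, by 0.50 for HNRNPAB to 0.67 for HNRNPUL1 on the log2 scale. The locus of HNRNPUL1 also holds EXOSC5, which rose (log2 fold change 1.33), and BCKDHA, which fell (-0.98), among others. HNRNPR rose least, with 154 ± 9.16 FPKM in KO and 135 ± 8.33 FPKM in WT libraries and overlapping libraries (adjusted p 0.0227), and its log2 fold change was -0.031 after upper-quartile scaling and -0.083 after quantile normalization.

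Upstream sequence was compared for these genes because they moved together in MDA-MB-231. The RefSeq promoter table (GRCh38.p14) held 42 of the 46 human protein-coding genes, and the 250 bases before each start were searched on both strands. The heptamer CCGGAAG, which holds the shorter GGAA core bound by ETS factors, was in 11 of the 42 (26.2%), against 8.82% of 27305 promoters of all kinds of genes. GGGCGG, the GC box, was in 61.9% of the 42 and 42.3% of all promoters, CCAAT in 42.9% and 33.0%, and the E-box CACGTG in 16.7% and 6.49%. TGACGTCA, the cyclic AMP response element, was in 0 of the 42, against 1.77% of all promoters, and the NRF1 core was in 0 of the 42, against 1.13%. Of the 42 genes 34 rose, among them the genes of all 11 ETS heptamers, of 24 of 26 GC boxes, of 15 of 18 CCAAT boxes and of 6 of 7 E-boxes. The rest were HNRNPH1, HNRNPH2, SRSF10 and SRSF11, which did not pass the test, and SRSF12, HNRNPCL1, HNRNPCL2 and HNRNPCL4, which were not tested. As 34 of the 42 rose, most genes of any motif would be among them, and a link of motif to rise was not tested. No motif of this set contains another, and a match is a description of letters, not a bound site. The 150 bases before the RefSeq start are shown for HNRNPA3, HNRNPF and SF3A3, which rose by over 2-fold, and for HNRNPH1, which did not pass the test. Each is on the strand of its gene, 5′ to 3′, with every match in capitals. HNRNPA3 is at chr2:177212644-177212793 on the plus strand and holds a GC box, a CCAAT box and an E-box. HNRNPF is at chr10:43408858-43409007 on the minus strand and holds the ETS heptamer, a CCAAT box and 2 GC boxes. SF3A3 is at chr1:37990023-37990172 on the minus strand and holds the ETS heptamer and a GC box. HNRNPH1 is at chr5:179634785-179634934 on the minus strand and holds no match. The shorter GGAA, which was not searched for, is also in the stretches of HNRNPA3 and HNRNPH1.
HNRNPA3: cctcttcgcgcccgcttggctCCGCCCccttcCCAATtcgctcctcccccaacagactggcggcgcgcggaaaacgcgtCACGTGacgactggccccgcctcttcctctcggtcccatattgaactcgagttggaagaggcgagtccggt
HNRNPF: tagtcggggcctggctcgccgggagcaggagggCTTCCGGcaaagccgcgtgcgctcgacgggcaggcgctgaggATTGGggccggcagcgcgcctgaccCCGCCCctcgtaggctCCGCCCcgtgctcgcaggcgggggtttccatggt
SF3A3: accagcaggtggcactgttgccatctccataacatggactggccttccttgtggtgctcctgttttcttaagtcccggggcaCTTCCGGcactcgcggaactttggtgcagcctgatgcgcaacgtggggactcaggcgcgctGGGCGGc
HNRNPH1: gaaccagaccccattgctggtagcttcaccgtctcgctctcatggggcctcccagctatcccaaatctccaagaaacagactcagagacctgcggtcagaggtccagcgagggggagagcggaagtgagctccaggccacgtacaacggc

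Of the 29 pseudogene rows, 8 passed the filter, 6 of them rose and 2, HNRNPDP1 and HNRNPKP2, did not pass the test. Relative to their chromosomal windows 2 of the 6, HNRNPCP1 and HNRNPUP1, still passed, and HNRNPKP4 was at -0.15. HNRNPKP4 did not pass after upper-quartile scaling either (limma adjusted p 0.0607). HNRNPCP2, a copy of HNRNPC, averaged 7.59 ± 0.227 FPKM in KO and 4.89 ± 0.589 FPKM in WT libraries (ratio 1.55, against 1.69 for HNRNPC), HNRNPUP1 19.6 ± 1.83 FPKM in KO and 12.4 ± 1.09 FPKM in WT libraries (ratio 1.57, against 1.51 for HNRNPU), and HNRNPKP4 7.12 ± 1.09 FPKM in KO and 4.71 ± 0.851 FPKM in WT libraries (ratio 1.51, against 1.37 for HNRNPK). Their annotated sequences were 94.6%, 96.1% and 96.5% identical to the coding sequence of the parent gene, over 918, 331 and 1386 aligned bases. The first 60 bases of each pair that align without a gap are shown because they show how few bases separate a copy from its parent. Capitals mark the bases of the copy that differ, 1 in HNRNPCP2 (chromosome 2), 3 in HNRNPKP4 (chromosome 3) and 2 in HNRNPUP1 (chromosome 14).
HNRNPCP2: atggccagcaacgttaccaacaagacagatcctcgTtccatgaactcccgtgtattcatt
HNRNPC: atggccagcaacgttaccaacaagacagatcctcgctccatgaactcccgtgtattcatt
HNRNPKP4: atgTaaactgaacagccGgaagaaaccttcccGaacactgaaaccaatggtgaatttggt
HNRNPK: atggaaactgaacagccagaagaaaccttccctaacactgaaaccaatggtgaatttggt
HNRNPUP1: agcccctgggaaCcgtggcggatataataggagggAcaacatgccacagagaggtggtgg
HNRNPU: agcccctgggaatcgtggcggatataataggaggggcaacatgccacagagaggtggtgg
A read over such a stretch can fall on either gene, so the levels of the copies, and that of HNRNPA1L2 (98.4% identical to HNRNPA1 over 752 aligned bases), are uncertain and count little beside those of their parents.

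Among the SR protein genes of MDA-MB-231, 9 of the 11 tested rose. SRSF7, which also takes part in mRNA export, measured 202, 209.5, 202 and 194 FPKM in the KO libraries, against 104, 105, 104 and 100.0 FPKM in the WT libraries. The groups did not overlap, and the KO mean was 1.96 times the WT mean (log2 fold change 0.96, SE 0.038, adjusted p 8.57e-08). SRSF6 averaged 145 ± 7.05 FPKM in KO and 80.8 ± 2.34 FPKM in WT libraries, a ratio of 1.80. SRSF1, the founding SR protein, averaged 274 ± 6.58 FPKM in KO and 170.0 ± 5.46 FPKM in WT libraries (ratio 1.61), SRSF2 366 ± 19.1 FPKM in KO and 217 ± 6.65 FPKM in WT libraries (ratio 1.68) and SRSF9 311 ± 10.6 FPKM in KO and 185 ± 8.88 FPKM in WT libraries (ratio 1.68). The SRSF9 row shares its locus with COX6A1, TRIAP1 and GATC, which rose too (log2 fold changes 0.54, 0.65 and 0.92), so its level is less certain. SRSF8 also rose (log2 fold change 0.39).

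SRSF3 had the highest mean of the family in both groups, with 419 ± 23.3 FPKM in KO and 287 ± 4.84 FPKM in WT libraries (log2 fold change 0.54). SRSF5 averaged 302 ± 18.7 FPKM in KO and 245 ± 6.98 FPKM in WT libraries (log2 fold change 0.30), and was at 0.086 after upper-quartile scaling and 0.046 after quantile normalization, neither past the test, and at -0.0059 relative to genes of its chromosomal window. SRSF4 measured 77.6, 78.01, 84.9 and 66.01 FPKM in the KO libraries, against 49.2, 71.8, 46.4 and 62.1 FPKM in the WT libraries. WT replicate 2 of SRSF4 lay within the KO range, and the call (adjusted p 0.0238) was lost without any of KO replicates 1, 2 or 3 or WT replicates 1 or 3 (adjusted p 0.0504 to 0.0644), and after upper-quartile or quantile scaling. SRSF10, a repressor of splicing when dephosphorylated, averaged 137 ± 8.08 FPKM in KO and 128 ± 3.86 FPKM in WT libraries, and SRSF11 averaged 127 ± 9.99 FPKM in KO and 121 ± 9.42 FPKM in WT libraries. Neither passed the test, and after quantile normalization both fell (log2 fold changes -0.16 and -0.18), while relative to its chromosomal window SRSF10 rose (0.19) and SRSF11 fell (-0.27).

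In CT26 the same families moved in both directions, and on the deposited scale about as often as all genes did. Of 40 rows, 39 passed the filter and Srsf12 was at 0 in every library. Of the 39, 8 rose (20.5%), 13 fell (33.3%) and 18 did not pass the test. These shares are near those of all genes, of which 22.3% rose and 33.5% fell (55.8% either way). By at least 1.5-fold 3 rose, Hnrnpul2, Srsf5 and Sf3b6, and 0 fell, where 6.68% of all genes rose and 7.49% fell by that much (limma, adjusted p below 0.05). The 18 genes that did not pass had log2 fold changes between -0.14 for Hnrnpf and 0.15 for Sf3a1. Regardless of the test, 10 genes were higher and 13 lower with no overlap between KO and WT libraries, where 20.3% of all genes were higher and 31.1% lower. Median log2 fold changes were -0.05 for the 39 and -0.06 for all genes. The split depended on the scaling, with 17 higher and 5 lower after upper-quartile scaling and 12 higher and 5 lower after quantile normalization. Of all genes tested, 29.2% rose and 25% fell after upper-quartile scaling, and 25.5% rose and 28.8% fell after quantile normalization. Among all called CT26 genes the share that rose was 40.0% on the deposited scale and 53.9% after upper-quartile scaling.

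Of the 9 SF3 genes of CT26, 3 rose, 3 fell and 3 did not pass the test. Sf3b6 measured 259.6, 281, 253 and 265 FPKM in the KO libraries, against 184, 154, 159 and 156 FPKM in the WT libraries. KO libraries were all higher, and the KO mean was 1.62 times the WT mean (log2 fold change 0.70, SE 0.061, adjusted p 2.83e-05). Sf3b5 measured 16.3, 15.01, 15.04 and 15.4 FPKM in the KO libraries, against 10.04, 10.7, 9.46 and 12.3 FPKM in the WT libraries (log2 fold change 0.51, SE 0.075, adjusted p 5.51e-04). Sf3b3 measured 72.8, 71.1, 70.7 and 69.5 FPKM in the KO libraries, against 52.3, 52.5, 51.4 and 51.7 FPKM in the WT libraries. Its groups were narrow and apart (log2 fold change 0.44, SE 0.027, adjusted p 4.46e-06). In the mouse table the locus of Sf3b3 (chromosome 8, 110810239 to 110972480, mm10) also holds Cog4 and Fuk, which rose too (log2 fold changes 0.55 and 0.68), and St3gal2, which did not pass the test (0.16), and the labels do not say if strand was used in counting.

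Sf3b1 fell. It measured 47.1, 48.9, 44.5 and 42.9 FPKM in the KO libraries, against 64.4, 63.04, 60.4 and 61.96 FPKM in the WT libraries, with every KO library below every WT library (log2 fold change -0.44, SE 0.045, adjusted p 7.17e-05). The ratio of Sf3b3 to Sf3b1 was 1.55 ± 0.071 in KO and 0.833 ± 0.016 in WT libraries. Sf3b2 also fell, with 105 ± 0.884 FPKM in KO and 114 ± 3.83 FPKM in WT libraries (log2 fold change -0.12, not past the test after upper-quartile scaling), and Sf3b4 with 48.5 ± 1.18 FPKM in KO and 51.6 ± 1.32 FPKM in WT libraries (adjusted p 0.0487). Sf3b4 lost its call when any library other than KO replicate 3 was left out and with the replicate number as a block (adjusted p 0.0905), and its log2 fold change was 0.0039 after upper-quartile scaling. Of the SF3A genes, Sf3a1 averaged 35.1 ± 1.39 FPKM in KO and 31.8 ± 3.80 FPKM in WT libraries, Sf3a2 68.1 ± 5.91 FPKM in KO and 73.2 ± 4.66 FPKM in WT libraries and Sf3a3 50.9 ± 1.14 FPKM in KO and 53.6 ± 1.48 FPKM in WT libraries, and none of the 3 passed the test (limma adjusted p 0.165, 0.229 and 0.0916).

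Hnrnpul2, a relative of the scaffold gene Hnrnpu, rose most among the CT26 genes. It lies on chromosome 19 (8819401 to 8834142, mm10) and measured 45.02, 44.7, 44.9 and 43.6 FPKM in the KO libraries, against 19.5, 19.1, 19.03 and 19.4 FPKM in the WT libraries. KO libraries were all more than 2-fold above all WT libraries (log2 fold change 1.17, SE 0.030, adjusted p 1.09e-07). Its relative Hnrnpul1 fell, with 65.2 ± 1.63 FPKM in KO and 70.8 ± 1.48 FPKM in WT libraries, though not past the test after upper-quartile scaling, and the ratio of Hnrnpul2 to Hnrnpul1 was 0.683 ± 0.012 in KO and 0.272 ± 0.0058 in WT libraries. In MDA-MB-231, HNRNPUL2 rose as well, with 33.2, 38.5, 39.4 and 35.3 FPKM in the KO libraries, against 27.7, 26.97, 25.7 and 27.1 FPKM in the WT libraries (log2 fold change 0.43, SE 0.065, adjusted p 3.64e-04). The human row shares its locus with BSCL2, which fell, with 8.54 FPKM in KO and 53.0 FPKM in WT libraries, and with a readthrough of both genes, which had 22.1 FPKM in KO and 24.1 FPKM in WT libraries and did not pass the test, so the human level is less certain.

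Among the other hnRNP genes of CT26 the rises were small. Hnrnpa1 averaged 285 ± 4.51 FPKM in KO and 242 ± 2.43 FPKM in WT libraries (log2 fold change 0.23), Hnrnpa0 136 ± 2.78 FPKM in KO and 122 ± 7.15 FPKM in WT libraries (log2 fold change 0.15) and Hnrnpc 217 ± 4.74 FPKM in KO and 195 ± 5.33 FPKM in WT libraries (log2 fold change 0.15, but -0.18 and past the test relative to genes of its chromosomal window). Hnrnph1 had the highest mean of the family, with 1179.9 ± 41.7 FPKM in KO and 1194 ± 27.2 FPKM in WT libraries, and did not pass the test (adjusted p 0.672). Hnrnpk averaged 1119 ± 37.7 FPKM in KO and 1119 ± 25.8 FPKM in WT libraries.

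The largest falls among the CT26 hnRNP genes were those of Hnrnpdl and Hnrnpd, which lie close together on chromosome 5 and encode related AU-rich element binding proteins. Hnrnpdl (100033577 to 100039664, mm10) measured 99.5, 96.5, 100.5 and 100.3 FPKM in the KO libraries, against 129, 133, 132 and 125 FPKM in the WT libraries. Its groups were apart (log2 fold change -0.38, SE 0.030, adjusted p 1.55e-05). Hnrnpd (99955935 to 99978938, mm10) measured 511, 513, 526 and 503 FPKM in the KO libraries, against 641, 653, 659 and 645 FPKM in the WT libraries, again apart (log2 fold change -0.34, SE 0.023, adjusted p 7.14e-06). Hnrnpu, the scaffold gene, averaged 454 ± 10.05 FPKM in KO and 513 ± 11.6 FPKM in WT libraries (log2 fold change -0.18, but 0.37 and past the test relative to genes of its chromosomal window). Hnrnpll fell too (log2 fold change -0.14), as did Hnrnpa3 (log2 fold change -0.094), and neither passed the test after upper-quartile scaling.

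Srsf5 was the only SR protein gene of CT26 that rose on the deposited scale. It measured 193, 199, 208 and 197 FPKM in the KO libraries, against 116, 119.8, 123 and 119 FPKM in the WT libraries. KO libraries all lay above WT libraries, with a ratio of 1.67 (log2 fold change 0.73, SE 0.032, adjusted p 8.52e-07). In level Srsf5 ranked after Srsf2 and Srsf1 in KO libraries, and after Srsf2, Srsf1, Srsf6 and Srsf3 in WT libraries, each time apart from its neighbours in the order. Srsf4 fell, with 34.1, 32.6, 33.1 and 33.4 FPKM in the KO libraries, against 41.5, 41.5, 41.1 and 42.2 FPKM in the WT libraries (log2 fold change -0.31, SE 0.029, adjusted p 4.11e-05). Srsf6, Srsf9 and Srsf10 fell by less, with log2 fold changes of -0.11, -0.10 and -0.20, and none of the 3 passed the test after upper-quartile scaling. The call of Srsf10 (adjusted p 0.0194) was lost without KO replicate 2 or 4 or WT replicate 1 (adjusted p 0.0503 to 0.0529). Srsf2, the most abundant SR protein gene, averaged 299 ± 10.02 FPKM in KO and 295 ± 8.71 FPKM in WT libraries, and Srsf7 74.02 ± 1.29 FPKM in KO and 73.2 ± 1.68 FPKM in WT libraries. Both were not called on the deposited scale, and after upper-quartile scaling both rose (log2 fold changes 0.11 and 0.11).

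**Figure D3:**
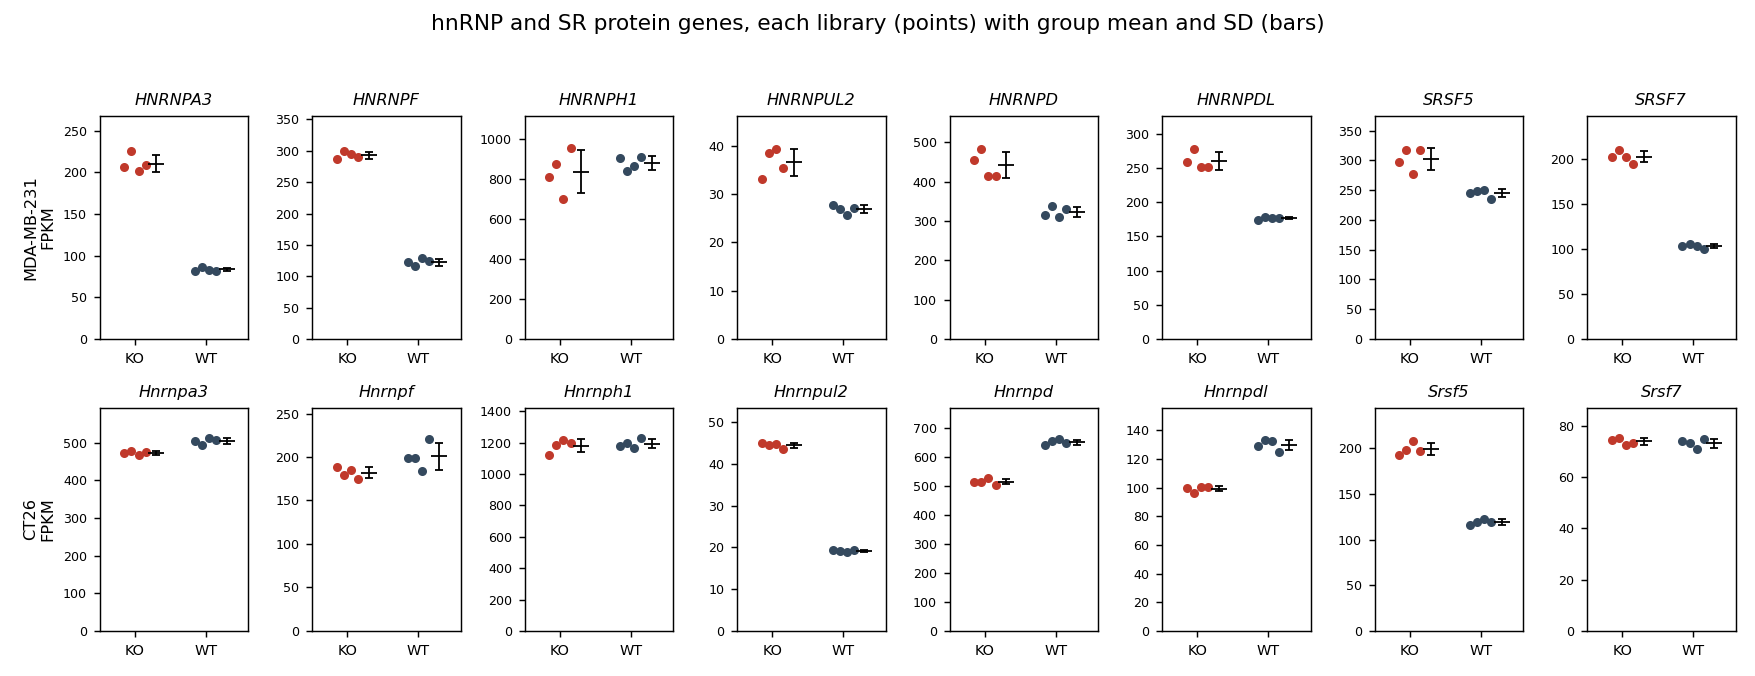
FPKM (vertical axis, from 0) of 6 hnRNP and 2 SR protein genes in each KO and WT library (points, KO in red and WT in dark blue), with the group mean and SD beside them; MDA-MB-231 is the upper row and CT26 the lower. HNRNPA3 and HNRNPF are 2.52-fold and 2.39-fold higher in KO in the upper row, HNRNPH1 overlaps in both rows, and Hnrnpul2 is 2.31-fold higher in KO in the lower row.

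Responses were next compared between the lines for the 39 genes tested in both, by the difference of the log2 fold changes, MDA-MB-231 minus CT26, in a limma fit of all 16 libraries adjusted over 8667 paired genes. The difference passed the test for 36 of the 39, where 72.2% of all paired genes did, and 34 of the 39 passed with the higher response in MDA-MB-231, where 50.1% of all paired genes did. HNRNPA3 had the largest difference (difference 1.42, SE 0.050, adjusted p 2.14e-13), with a log2 fold change of 1.32 in MDA-MB-231 and -0.09 in CT26. HNRNPF (difference 1.39, SE 0.069, adjusted p 1.83e-11), SRSF7 (difference 0.95, SE 0.050, adjusted p 3.82e-11), HNRNPDL (difference 0.94, SE 0.053, adjusted p 9.10e-11) and SRSF6 (difference 0.94, SE 0.056, adjusted p 1.49e-10) had the next smallest p-values. HNRNPUL2 and SRSF5 had the higher response in CT26 (difference -0.74, SE 0.076, adjusted p 1.58e-07 for HNRNPUL2 and difference -0.43, SE 0.061, adjusted p 7.70e-06 for SRSF5). The differences did not pass the test for HNRNPH1 (-0.07, SE 0.093), HNRNPH2 (-0.14, SE 0.071) and SRSF11 (0.02, SE 0.090).

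Of the 39 genes, 20 passed the test in both lines, 8 in the same direction and 12 in opposite directions. Such counts were not made over all 8667 paired genes under any scaling, so the split has no background beside it. On the deposited scale 68.2% of all MDA-MB-231 genes passed, more of them rises, and 55.8% of all CT26 genes, more of them falls. The split depended on the scaling, with 14 alike and 5 opposite after upper-quartile scaling, 10 and 5 after quantile normalization, and 10 and 6 relative to chromosomal windows. The 8 were SF3B6, SF3B5, SF3B3, HNRNPUL2, SRSF5, HNRNPA1, HNRNPC and HNRNPA0, all higher in KO in both lines on the deposited scale. Relative to its chromosomal window HNRNPC fell in CT26, and SRSF5 did not pass the test in MDA-MB-231 under any of the 3 other scalings. SF3B6 had log2 fold changes of 1.06 in MDA-MB-231 and 0.70 in CT26, SF3B5 0.85 and 0.51, and SF3B3 1.504 and 0.44. Of the 12, SF3B1 had log2 fold changes of 0.67 in MDA-MB-231 and -0.44 in CT26 (difference 1.11, SE 0.075, adjusted p 8.66e-10), HNRNPD 0.45 and -0.34, SRSF4 0.43 and -0.31, and HNRNPU 0.59 and -0.18. Of these, SF3B1, HNRNPD and HNRNPU stayed opposite after upper-quartile scaling and quantile normalization, and SRSF4 relative to chromosomal windows, where Hnrnpu rose in CT26. HNRNPDL, also of the 12 (0.55 in MDA-MB-231 and -0.38 in CT26), stayed opposite under all 3 other scalings. Across the 39 genes, which are not independent and share their libraries, Pearson's r of the responses was 0.12 and Spearman's rho 0.23.

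**Figure D4:**
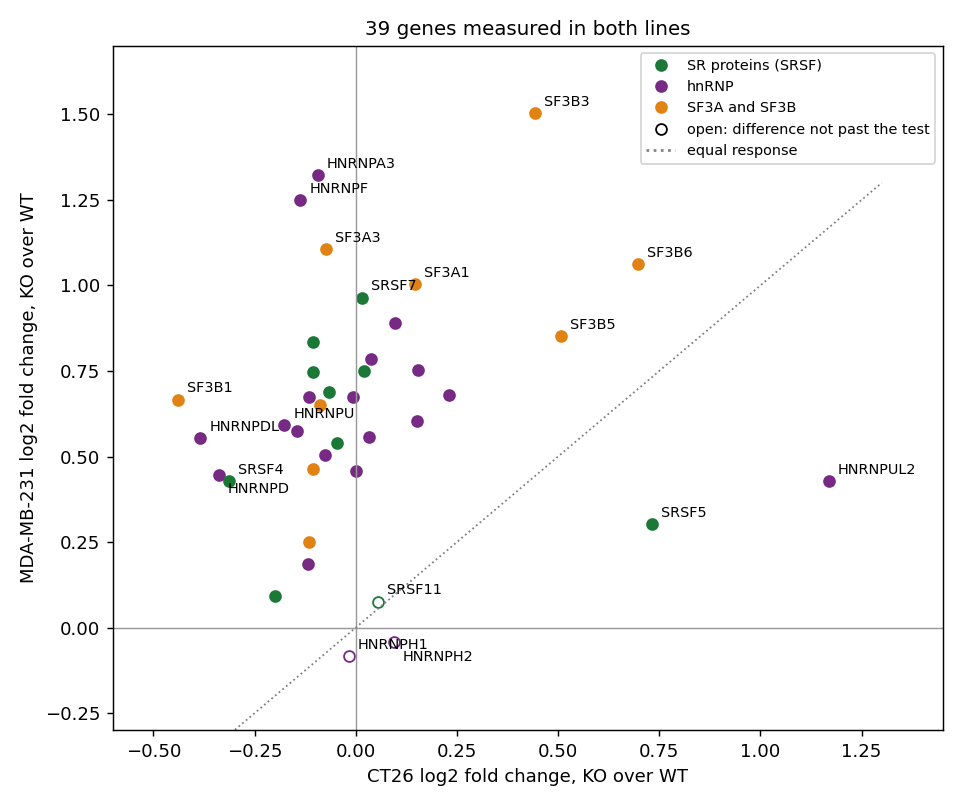
Log2 fold change of KO over WT in MDA-MB-231 (vertical axis) against CT26 (horizontal axis), log2(FPKM + 1) scale, for the 39 genes tested in both lines, coloured by family; open symbols mark genes whose difference between lines did not pass the test and the dotted line marks equal responses. Most genes lie above the dotted line, HNRNPUL2 and SRSF5 lie below it, and SF3B3, SF3B5 and SF3B6 are higher in KO in both lines.

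Neighbouring genes were compared with the splicing factor genes by the median log2 fold change of all genes tested in the same fixed 10 Mb stretch of the chromosome. For several CT26 genes the stretch had moved alike. Srsf5 had a log2 fold change of 0.73 in a stretch with a median of 0.58 over 73 genes, Sf3b6, on the same chromosome 12, 0.70 with 0.46 over 26, Sf3b1 -0.44 with -0.41 over 52, and Hnrnpd -0.34, itself the median of its 39 genes. Sf3b1 did not pass the test relative to its stretch, while Srsf5 and Sf3b6 did, at 0.16 and 0.24. The median, which includes the gene itself, was subtracted as a fixed number. Such p-values therefore hold neither the error of the median nor the spread of the genes within the stretch. Hnrnpd, as the median that is subtracted, could not pass. Its neighbour Hnrnpdl starts in the next stretch and still fell relative to that one (log2 fold change -0.26, limma adjusted p 2.38e-04). Hnrnpul2 stood apart from its surroundings, with 1.17 in a stretch with a median of 0.064 over 164 genes. Hnrnpu and Hnrnpc had moved less than their stretches, with -0.18 against -0.55 over 58 genes and 0.15 against 0.33 over 91.

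In MDA-MB-231, SF3B3 lay in a stretch with a median of 0.91 over 55 genes, the highest among the protein-coding genes of the set, and kept a log2 fold change of 0.60 relative to it. SF3A3, at 1.11, lay in a stretch at 0.10, SF3A1, at 1.004, in one at 0.088, and HNRNPA3, at 1.32, in one at 0.28. SRSF3, at 0.54, lay in a stretch at -0.44 over 188 genes. HNRNPU, at 0.59 in a stretch at 0.50, did not pass the test relative to it (adjusted p 0.0986). Relative to their stretches 36 of the 49 rows rose and 1, SRSF11, fell in MDA-MB-231, where 31.1% of all genes rose and 30.7% fell, and 14 of the 39 rose and 6 fell in CT26, where 21.7% of all genes rose and 22.3% fell.

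**Figure D5:**
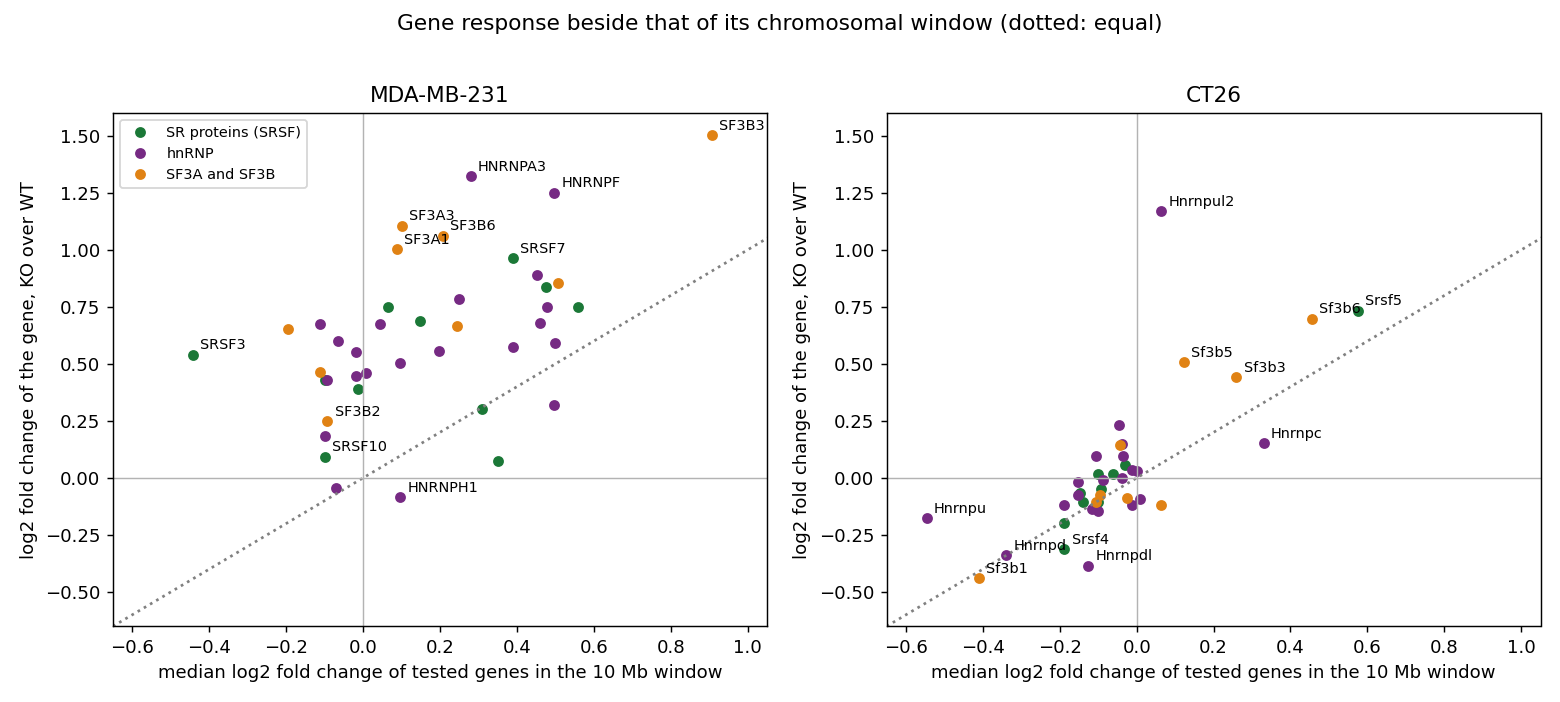
Log2 fold change of each protein-coding splicing factor gene (vertical axis) against the median log2 fold change of all genes tested in its 10 Mb stretch (horizontal axis), log2(FPKM + 1) scale, in MDA-MB-231 (left) and CT26 (right); the dotted line marks equal values. In MDA-MB-231 most genes lie above the line over the whole range of medians, whereas in CT26 Sf3b1 and Hnrnpd (itself the median of its stretch) lie at the line, Srsf5, Sf3b6 and Hnrnpu above it, Hnrnpul2 far above it and Hnrnpc below it.

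Other splicing genes were mostly higher in KO in MDA-MB-231, and in CT26 moved about as often as all genes did. From 10 lists of 125 other splicing genes, chosen with earlier results of these data known, 121 rows were tested in MDA-MB-231, where 85 rose, 7 fell and 29 did not pass the test, beside 42.6% of all genes that rose and 25.7% that fell. In CT26 118 rows were tested, where 18 rose, 42 fell and 58 did not pass, which is near the 22.3% of all genes that rose and 33.5% that fell. The 7 Sm core genes, whose proteins form the ring of the snRNPs, rose in 7 of 7 cases in MDA-MB-231 on the deposited scale and after upper-quartile, quantile or window scaling (median log2 fold change 0.99, all genes 0.18), with SNRPB at 696 FPKM in KO and 301 FPKM in WT libraries. In CT26 0 of the 7 rose and 4 fell (median -0.15, all genes -0.06), among them Snrpd1 with 130.4 FPKM in KO and 171 FPKM in WT libraries and Snrpe with 191 FPKM in KO and 245 FPKM in WT libraries, while relative to their chromosomal windows Snrpe rose and Snrpd1 was at 0.075, not past the test.

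Of all genes tested, 42.6% rose and 25.7% fell in MDA-MB-231 and 22.3% rose and 33.5% fell in CT26, and the counts of the smaller lists are given beside those shares. Of the U2 snRNP and branch point partners, 12 of 14 rose and 0 fell in MDA-MB-231, with SNRPB2, a U2 snRNP protein gene, at 133 FPKM in KO and 58.2 FPKM in WT libraries, and 3 of 16 rose and 9 fell in CT26, with U2af1, which reads the end of the intron, at 154 FPKM in KO and 192 FPKM in WT libraries. Of the PRP19 complex, which activates the spliceosome, 10 of 12 rose in MDA-MB-231. PRPF19 itself measured 204, 214, 208 and 211 FPKM in KO libraries, against 57.98, 61.4, 62.8 and 60.1 FPKM in WT libraries (log2 fold change 1.77, adjusted p 3.73e-09). In CT26 2 of the 12 rose and 2 fell, and Prpf19 did not pass the test (388 FPKM in KO and 362 FPKM in WT libraries).

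The exon junction complex list had 10 of 11 genes higher in MDA-MB-231, and 4 of 11 higher and 4 lower in CT26. U5 and tri-snRNP genes rose in 11 of 14 cases in MDA-MB-231, and in CT26 1 rose and 5 fell. Of the kinases, phosphatase and import factors that act on SR proteins, 4 of 11 rose and 3 fell in MDA-MB-231, near the 42.6% and 25.7% of all genes (median log2 fold change 0.09), or 1 rose and 5 fell after upper-quartile scaling, and in CT26 2 of 10 rose and 3 fell. CLK1, an SR protein kinase gene, fell in both lines, with 28.5 FPKM in KO and 38.4 FPKM in WT libraries in MDA-MB-231 and 24.7 FPKM in KO and 30.6 FPKM in WT libraries in CT26, though relative to its chromosomal window the CT26 value was a log2 fold change of 0.12, not past the test. Of the hnRNP proteins with other symbols, 12 of 18 rows rose and 2 fell in MDA-MB-231, and 2 of 17 rose and 4 fell in CT26. SYNCRIP, a relative of HNRNPR, measured 153 FPKM in KO and 59.2 FPKM in WT libraries in MDA-MB-231, and Tardbp, which encodes TDP-43, 214 FPKM in KO and 299.7 FPKM in WT libraries in CT26.

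Large changes outside the core machinery were in the list of tissue-type splicing regulators of MDA-MB-231, where 7 of 13 rose and 2 fell, near the 42.6% and 25.7% of all genes, and in CT26 3 of 10 rose and 2 fell. RBM47, known from epithelial cells, measured 0.0865, 0.0911, 0.138 and 0.110 FPKM in KO libraries, against 10.3, 20.7, 14.03 and 16.5 FPKM in WT libraries (log2 fold change -3.85, adjusted p 2.33e-07). KHDRBS3 measured 56.7, 41.9, 45.7 and 47.2 FPKM in KO libraries, against 9.74, 6.73, 3.90 and 5.92 FPKM in WT libraries (log2 fold change 2.74, adjusted p 5.28e-06). Both were apart between the groups, and they moved beside the line markers VIM and KRT7 given above, which are only part of the tested line markers. The other lists were U1 snRNP genes, with 3 of 7 higher in MDA-MB-231, near the share of all genes, and 1 higher and 4 lower in CT26, and SR-related coactivators, with 9 of 14 higher in MDA-MB-231 and 0 higher and 5 lower of 14 in CT26.

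The authors' deposited table gave a q-value below 0.05 to 40 higher and 0 lower of the 50 splicing factor rows with an estimate in MDA-MB-231, and to 7 higher and 5 lower of 39 in CT26, per the authors' own test. The share of all genes below 0.05 by that test was not counted, so these counts have no background beside them.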

How the data were processed

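The measurement was bulk RNA sequencing of 16 libraries, 4 KO and 4 WT of each of 2 lines. Per the submitters' processing notes, reads were handled with bcl2fastq 2.18, STAR 2.5.4a, Cufflinks 2.2.1 and Cuffdiff, on builds hg38 and mm10. Annotation, settings and use of strand are not stated there. The authors deposited, for each line, a table with FPKM per gene and library, group FPKM, and p-values and q-values of their own test. Read totals were not used here, and depth was estimated relative to WT replicate 1 from the most common ratio between the low FPKM values (up to 0.5) of 2 libraries. Libraries without counts allow no counting interval.

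Genes with at least 1 FPKM in at least 4 of 8 libraries were fitted in limma 3.58.1 (R 4.3.3) with a mean-variance trend on log2(FPKM + 1). P-values are two-sided and Benjamini-Hochberg adjusted over all genes of a table, with a threshold of 0.05. Responses of the lines were compared by the line-by-genotype term over genes paired by symbol. The scripts were tested on simulated data with 200 changed genes. Tables and figures used Python 3.11.15, numpy 2.4.6, pandas 2.3.3 and matplotlib 3.10.9, and copies were aligned with blastn 2.17.0.

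The gene families and lists were chosen with earlier results of these data known, and the rows of a family were then taken by symbol. Genes described one by one were the 8 largest rises and falls per line, all SF3 genes, the most abundant of each family, the 5 smallest p-values between lines, up to 5 called alike or oppositely in both lines, and up to 3 of each related list per line. Others were named after their values were seen. Chromosomal windows were fixed 10 Mb bins of the gene's start, and bins under 10 genes took the chromosome's median. Window medians were subtracted as fixed numbers, so p-values relative to windows leave out their error. Human positions and gene types come from GENCODE 29. Alternatives were pseudocounts 0.1 and 5, no filter, a 5 FPKM filter, upper-quartile and quantile scaling, window centring, no trend, a 1.5-fold limit, the replicate block and leaving out each library.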

Additional observations from a re-analysis of the deposited data

Results flagged for a closer look

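In MDA-MB-231, KO replicate 3 of SF3A2 had 113.37 FPKM, apart from the other KO libraries, which had 140.2, 144.4 and 145.4 FPKM. In CT26, WT replicate 4 of Sf3b2 had 119.448 FPKM, above the other WT libraries, which had 111.2, 111.9 and 112.5 FPKM. Each lay farther from its nearest neighbour than Dixon's 95% limit for groups of 4 allows. These were 2 of 96 groups of 4 libraries looked at, and chance alone marks about 1 in 20 groups. SF3A2 in MDA-MB-231 and Sf3b2 in CT26 were called with or without these libraries.

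By the test of the difference itself (log2 fold change in MDA-MB-231 minus that in CT26), the KO response differed between the lines for 36 of 39 genes, where 72.2% of all paired genes differed. Given here are the 5 genes with the smallest p-values and 5 called in opposite directions in the lines, 9 genes in all, since HNRNPDL is in both sets. The difference was 1.42 for HNRNPA3, 1.39 for HNRNPF, 1.11 for SF3B1, 0.95 for SRSF7, 0.94 for HNRNPDL, 0.94 for SRSF6, 0.78 for HNRNPD, 0.77 for HNRNPU and 0.74 for SRSF4. For HNRNPA3, SF3B1, HNRNPDL, SRSF6, HNRNPD, HNRNPU and SRSF4 the gene rose in MDA-MB-231 and fell in CT26, on the deposited scale. Relative to chromosomal windows Hnrnpu rose in CT26, Sf3b1 and Srsf6 did not pass the test there, and HNRNPU did not pass it in MDA-MB-231. Hnrnpd was itself the median of its window and could not pass. After upper-quartile scaling Hnrnpa3 and Srsf6 did not pass in CT26, nor SRSF4 in MDA-MB-231. HNRNPF and SRSF7 rose in MDA-MB-231 and did not pass the test in CT26 on the deposited scale.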

How the results depend on the processing

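Upper-quartile scaling gave 3 splicing factor rows lower in MDA-MB-231, and 17 higher and 5 lower in CT26, with CD274 at -0.40 (past the test). Quantile normalization gave 4 lower in MDA-MB-231 and 5 lower in CT26, with CD274 at -0.32 (past the test). Window centring gave 1 lower in MDA-MB-231, and 14 higher and 6 lower in CT26, with CD274 at -0.53 (past the test). Shares of all genes that rose and fell under these scalings are given with the counts above. A limit of 1.5-fold, which by construction removes small changes, left 25 higher in MDA-MB-231, and 3 higher and 0 lower in CT26. Of 49 rows in MDA-MB-231 and 39 in CT26, 3 and 7 turned sign with upper-quartile scaling, 4 and 5 with quantile normalization and 5 and 10 with window centring. Among genes described one by one these were, in CT26, Hnrnph1 (0.076 with upper-quartile scaling, 0.039 with quantile normalization, 0.13 with window centring, 0.00746 without KO replicate 1, and from -0.032 to 0.00746 over the libraries left out), Sf3a3 (0.019, 0.0084 and 0.022 in the same order of scalings), Sf3b4 (0.0039 with upper-quartile scaling), and Hnrnpc (-0.18) and Hnrnpu (0.37) with window centring. Among the others, Hnrnpm was called higher under all 3 scalings and Srsf1 (0.08) with window centring, where Srsf9 (0.035) lost its fall. In MDA-MB-231 SF3B2 (-0.0012) did so with quantile normalization and SRSF5 (-0.0059) with window centring, as did HNRNPR (-0.031 and -0.083), SRSF10 (-0.12 and -0.16) and SRSF11 (-0.14 and -0.18) with upper-quartile and quantile scaling, and SRSF11 (-0.27), HNRNPA1L2 (-0.18), HNRNPKP4 (-0.15) and HNRNPH2 (0.026) with window centring. The cause was not tested. Leaving out each library gave 41 to 44 higher and 0 to 0 lower in MDA-MB-231, 8 to 9 higher and 11 to 14 lower in CT26, 36 to 37 differing between lines with 34 to 34 above in MDA-MB-231, CD274 from -0.28 to -0.10 and Cd274 from -0.70 to -0.63. Hnrnpf in CT26 passed the test without WT replicate 3 (-0.18, adjusted p 0.0158 in limma), and SRSF4 in MDA-MB-231 lost its call without a filter. Replicate numbers are not said to pair libraries, and deviations of same-numbered libraries correlated at -0.037 to 0.0044 in MDA-MB-231 and 0.027 to 0.078 in CT26, where 4 of 4 KO libraries correlated best with their own number, against 0 of 4 in MDA-MB-231. The replicate block left the counts at 43 and 0 in MDA-MB-231, 8 and 13 in CT26 and 36 and 34 between lines, CD274 at -0.20 and Cd274 at -0.66, and ended the call of Sf3b4. FPKM without counts gives no counting error, so the precision of genes near 1 FPKM is unknown.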
